A study of Mus musculus with 26 samples.

Results

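The Hox homeobox genes are described here in mouse cells and tumors of a Group3 medulloblastoma model, a childhood tumor of the cerebellum. The members were all genes whose single symbol in the array annotation is Hoxa, Hoxb, Hoxc or Hoxd followed by a number, without antisense or predicted genes. Of 39 such genes in the RefSeq gene table, 34 were measured among 17097 genes: 9 of the HoxA cluster on chromosome 6, 10 of HoxB on chromosome 11, 6 of HoxC on chromosome 15 and 9 of HoxD on chromosome 2. The others were not analysed here. Where a gene had several probe sets, the one brightest on average over all arrays was used. The family was chosen by a measured value: Hoxa5 had been selected on its difference between Group3 and Trp53 Cdkn2c neurospheres of the dka arrays, so that contrast is given below as a description, with no test.

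Hox genes encode transcription factors that give cells along the head-to-tail axis their regional identity. They lie in clusters, and genes at the low-numbered end are active further forward and earlier than those at the high-numbered end. The proteins bind DNA with PBX, MEIS and PKNOX partners of the TALE class. Retinoic acid and CDX factors switch the clusters on, Polycomb complexes keep them silent and trithorax complexes keep them active. The hindbrain expresses anterior Hox genes, whereas the cerebellum forms from tissue in front of their domain.

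RNA was read on 26 Affymetrix HT MG-430 PM arrays as log2 intensities made with RMA, on which a step of 1 is a doubling. All samples were of strain C57BL/6 and carried the labels Trp53-/-, Cdkn2c-/-. The Trp53 Cdkn2c neurospheres (3 arrays), labelled granule neural progenitors, carried no further allele, and the design text gives their age as P7. The remaining samples were also labelled Myc: 7 arrays of Group3 neurospheres, labelled medulloblastoma cells, 5 of Group3 tumors and 3 of Secondary Group3 tumors. A further 2 arrays were of tumors treated with Pemetrexed, an antifolate, 3 with Gemcitabine, a nucleoside analogue, and 3 with the combination. No dose or time was given. Nothing says that arrays of a group came from separate animals or cultures, so p-values measure only the spread between these arrays. The age of the tumor-bearing mice, the promoter behind Myc, the number of clones and any pooling of animals are not given in the labels. Titles began with dka (12 arrays) or mmm (14 arrays). All Trp53 Cdkn2c neurospheres and Secondary tumors were dka, all drug-treated tumors were mmm, and Group3 neurospheres (replicates 1 to 3 dka, 4 to 7 mmm) and Group3 tumors (1 to 3 dka, 4 and 5 mmm) were under both. Comparisons were made within a code. Standard errors and p-values rest on 1 spread per gene, shared by all 26 arrays, unless a fit of fewer arrays is named.

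Several facts of the whole data set touch the Hox values. Mean levels of the dka Group3 neurospheres and of mmm Group3 neurosphere replicates 4 to 6 differed with an SD of only 0.132 over 45141 probe sets, although any pair of those mmm arrays differed with an SD of 0.619 to 0.911. The same SD was 0.563 against mmm replicate 7 and 0.866 between the tumors of the codes. For Hoxa5, the mean of the dka Group3 neurospheres was 8.75 and that of mmm replicates 4 to 6 was 8.03, a difference of 0.73. Values ran from 2.56 to 13.9 on dka arrays and from 2.64 to 13.7 on replicate 7, but from -0.41 to 16.1 on the other mmm arrays. Levels are therefore not tested across codes, and mmm replicates 4 to 6 cannot be taken as independent of the dka neurospheres. Hox calls that use replicate 7, and the mmm differences of Hoxa5, Hoxa2, Skap2 and Gm15050, are given with and without it. Other results on the mmm neurospheres, among them those of the marker and factor lists, include it. In the main fit, the spread behind every standard error includes replicate 7. Mycn lay between 12.4 and 15.3 on the 23 arrays labelled Myc and between 4.46 and 4.82 on the Trp53 Cdkn2c neurospheres, while the Myc probe set read 6.93 to 9.48 and 8.09 to 9.06. Cdkn2c stayed between 3.28 and 4.80, near or below the array medians; where the Myc, Mycn and Cdkn2c probe sets lie in the altered alleles was not examined. The Myc readings do not set the arrays labelled Myc apart from the others, while those of Mycn do, so whether the added gene is Myc or Mycn is not settled by these values.

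RefSeq promoters (GRCm38.p6, 250 bases before to 50 after the start, on the gene's strand) were found for 21 of the 34 members, among them 8 of the HoxA genes. Those of Hoxa2, Hoxa5 and Hoxa7, which fell together in the dka tumors, and of Skap2, the neighbour of the cluster that fell with them, are shown. Capitals mark matches, on either strand, to CACGTG (the E-box read by MYC family proteins), TATAAA (the TATA box), CCAAT (bound by NF-Y) and TGATTNAT (a site type of HOX with PBX); no matches overlapped.
Hoxa2: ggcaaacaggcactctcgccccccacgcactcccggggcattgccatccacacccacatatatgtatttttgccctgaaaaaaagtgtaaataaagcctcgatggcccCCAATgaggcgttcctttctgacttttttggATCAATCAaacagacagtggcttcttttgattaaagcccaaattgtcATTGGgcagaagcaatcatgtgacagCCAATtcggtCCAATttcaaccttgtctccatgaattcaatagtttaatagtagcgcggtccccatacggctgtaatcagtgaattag
Hoxa5: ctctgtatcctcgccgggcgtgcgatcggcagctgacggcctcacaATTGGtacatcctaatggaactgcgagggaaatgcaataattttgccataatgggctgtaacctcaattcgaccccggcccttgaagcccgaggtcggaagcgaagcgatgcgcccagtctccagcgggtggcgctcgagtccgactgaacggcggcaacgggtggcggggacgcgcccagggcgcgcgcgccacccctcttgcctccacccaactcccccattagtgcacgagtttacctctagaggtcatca
Hoxa7: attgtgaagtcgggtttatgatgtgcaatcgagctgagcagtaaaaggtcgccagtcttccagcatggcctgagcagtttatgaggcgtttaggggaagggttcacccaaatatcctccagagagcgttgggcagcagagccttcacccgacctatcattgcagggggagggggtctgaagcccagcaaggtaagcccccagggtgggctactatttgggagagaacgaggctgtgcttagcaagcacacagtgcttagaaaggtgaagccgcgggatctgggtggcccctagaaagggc
Skap2: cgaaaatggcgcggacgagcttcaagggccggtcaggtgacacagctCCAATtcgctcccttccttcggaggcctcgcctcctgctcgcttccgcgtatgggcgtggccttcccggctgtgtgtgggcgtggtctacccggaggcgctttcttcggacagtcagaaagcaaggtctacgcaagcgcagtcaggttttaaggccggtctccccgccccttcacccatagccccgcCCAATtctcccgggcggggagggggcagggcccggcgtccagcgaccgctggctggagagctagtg
They lie on the minus strand at chr6:52164782-52165081 (Hoxa2), chr6:52204538-52204837 (Hoxa5), chr6:52218524-52218823 (Hoxa7) and chr6:52012500-52012799 (Skap2). The table gives the Hoxa3 promoter at chr6:52213018-52213317 on the same strand, so that start lies upstream of the Hoxa5 start. Hoxa4 is not in the promoter table.

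None of the 4 windows held CACGTG or TATAAA, which occur in 7.15% and 13.6% of the 32851 promoters in the table. The Hoxa2 window held 4 copies of CCAAT and 1 of TGATTNAT, the Skap2 window 2 of CCAAT, the Hoxa5 window 1 of CCAAT, and the Hoxa7 window none of these motifs. Among the 23 windows of the members, 5 held CACGTG (Hoxd1, Hoxd4, Hoxd10, Hoxd11 and Hoxd13) and 4 held TATAAA (Hoxa10, Hoxb8, Hoxd4 and Hoxd13). The window of Gm15050, a transcript within HoxA that also fell in dka tumors, held the E-box and the TATA box, 1 match each, and 2 of CCAAT. Of all promoters in the table, 37.4% hold CCAAT and 3.22% hold TGATTNAT. CpG dinucleotides, which are dense in promoters of developmental genes, numbered 29 for Hoxa5, 28 for Skap2, and 9 each for Hoxa2 and Hoxa7, against a median of 7 over all promoters and 14 over the 23 windows of the members.

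Values above the array median came almost entirely from the HoxA cluster. RMA gives no detection call, so levels were read against the median probe set of each array, which lay between 4.65 and 4.82. No HoxB gene exceeded it in any of 260 values and no HoxC gene in any of 156. HoxD genes exceeded it in 5 of 234 values, all from Hoxd8 and Hoxd9, and HoxA genes in 67 of 234. Hoxa11 and Hoxa13, at the tail end of the cluster, never did. For comparison, 52.6% to 59% of all genes were above the median on every array of a given group and code. Hoxa5 was the only member above the 75th percentile on every array of a set, in the dka Group3 neurospheres.

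**Figure D1:**
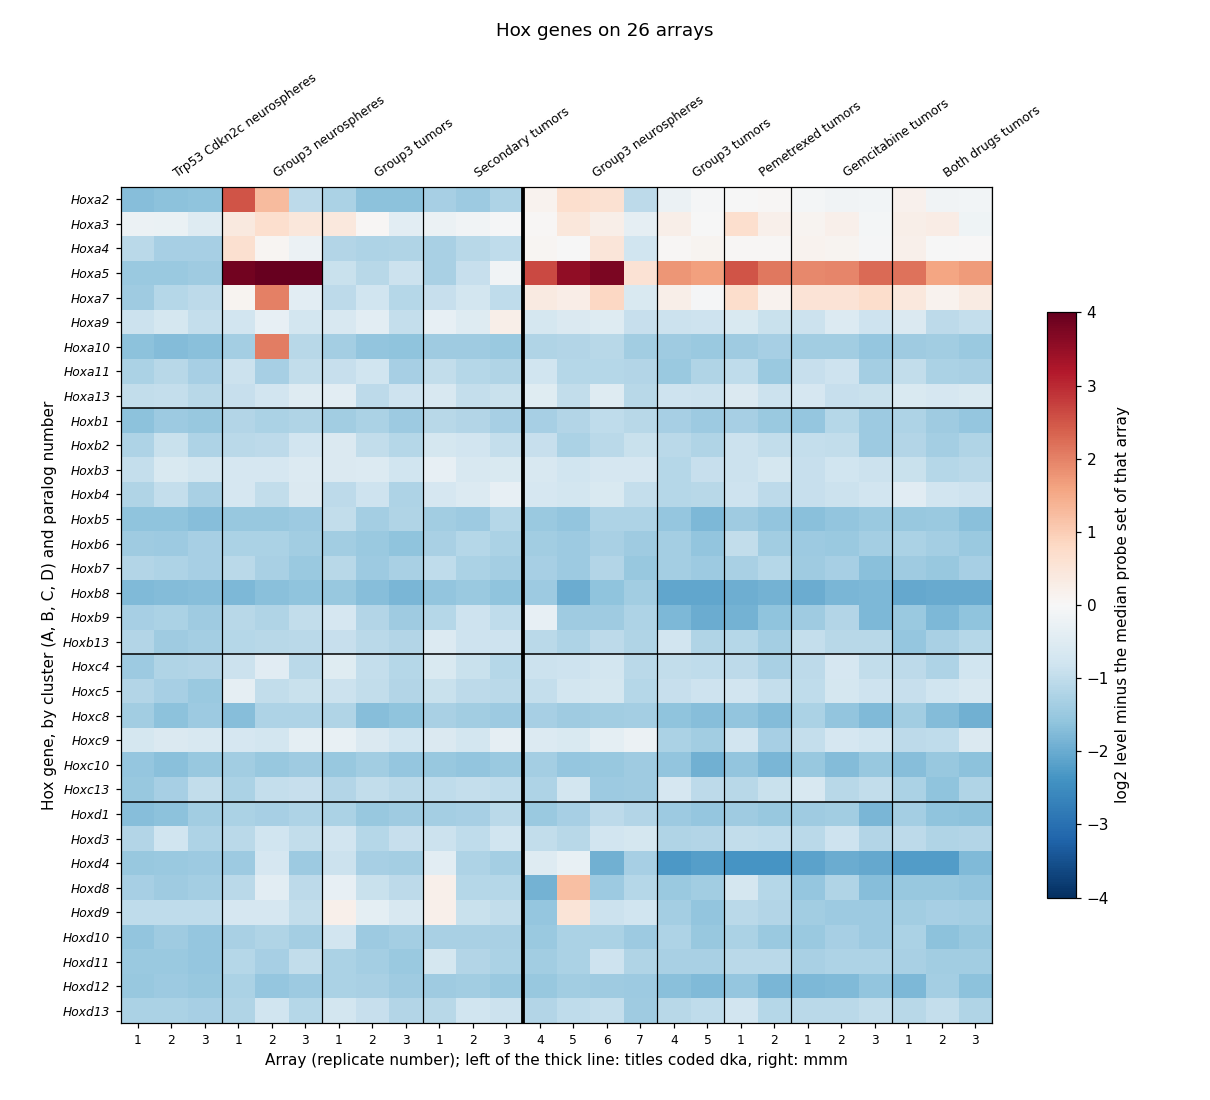
Each row is 1 of 34 Hox genes, ordered by cluster and paralog number, and each column 1 of 26 arrays. Colour gives the log2 level minus the median probe set of that array (red above, blue below). Hoxa5 is the reddest row; HoxB and HoxC rows are blue throughout.

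In Trp53 Cdkn2c neurospheres, no Hox gene was above the array median on any array, and the median level of the 34 was 3.46. Hoxa5, a regulator of lung and vertebral patterning, read 3.27, 3.29 and 3.37 there, and 8.52, 8.89 and 8.85 in the dka Group3 neurospheres. The groups were far apart, with a difference in log2 level of 5.44 (SE 0.51, n = 3 each). This is the value Hoxa5 was selected on. The Trp53 Cdkn2c levels are below the array median, where background makes up much of a probe set's signal, so the size of this and other Hox differences that reach below the median is uncertain.

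Other anterior and central HoxA genes were also higher in dka Group3 neurospheres, with large spread between the replicates. Hoxa2, a selector gene of hindbrain segments, read 7.18, 5.99 and 3.63 against 3.08, 3.13 and 3.18. Replicate 3 lay close to the Trp53 Cdkn2c arrays and replicates 1 and 2 far above them. Hoxa4, which patterns neck vertebrae, read 5.32, 4.80 and 4.44 against 3.71, 3.45 and 3.47. Hoxa7, a gene of trunk patterning and blood progenitors, read 4.78, 6.75 and 4.25 against 3.36, 3.64 and 3.77. Hoxa10, a posterior gene needed in the uterus, read 3.32, 6.77 and 3.55 against 3.12, 3.05 and 3.12, so only replicate 2 was high. The genes did not peak in the same array: replicate 1 had the highest Hoxa2 and Hoxa4, replicate 2 the highest Hoxa5, Hoxa7 and Hoxa10.

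In log2 level, the differences were 2.47 for Hoxa2 (SE 0.55), 1.67 for Hoxa7 (SE 0.42), 1.45 for Hoxa10 (SE 0.51), 1.31 for Hoxa4 (SE 0.23) and 0.76 for Hoxa3 (SE 0.20). With Hoxa5, 5 of 34 members were more than 1 apart, all higher in Group3 neurospheres, where 17.6% of all genes were that far apart in either direction; without Group3 neurosphere replicate 2, 3 members were (Hoxa2, Hoxa4 and Hoxa5). The members' median difference was 0.14 and that of all genes 0.08. Of the members, 28 differed by less than 0.5, including every HoxB, HoxC and HoxD gene; just inside that limit was Hoxc5 at 0.49.

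Hoxa3, which patterns the throat and its glands, was read by 4 probe sets that disagreed in size. The brightest gave the 0.76 above, and the next brightest 2.79, with a mean level of 6.26 ± 0.98 (SD, n = 3) in dka Group3 neurospheres against 3.46 ± 0.32 (n = 3) in Trp53 Cdkn2c neurospheres. The other two gave 0.92 and 0.30. Which Hoxa3 transcript each probe set reads was not examined.

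**Figure D2:**
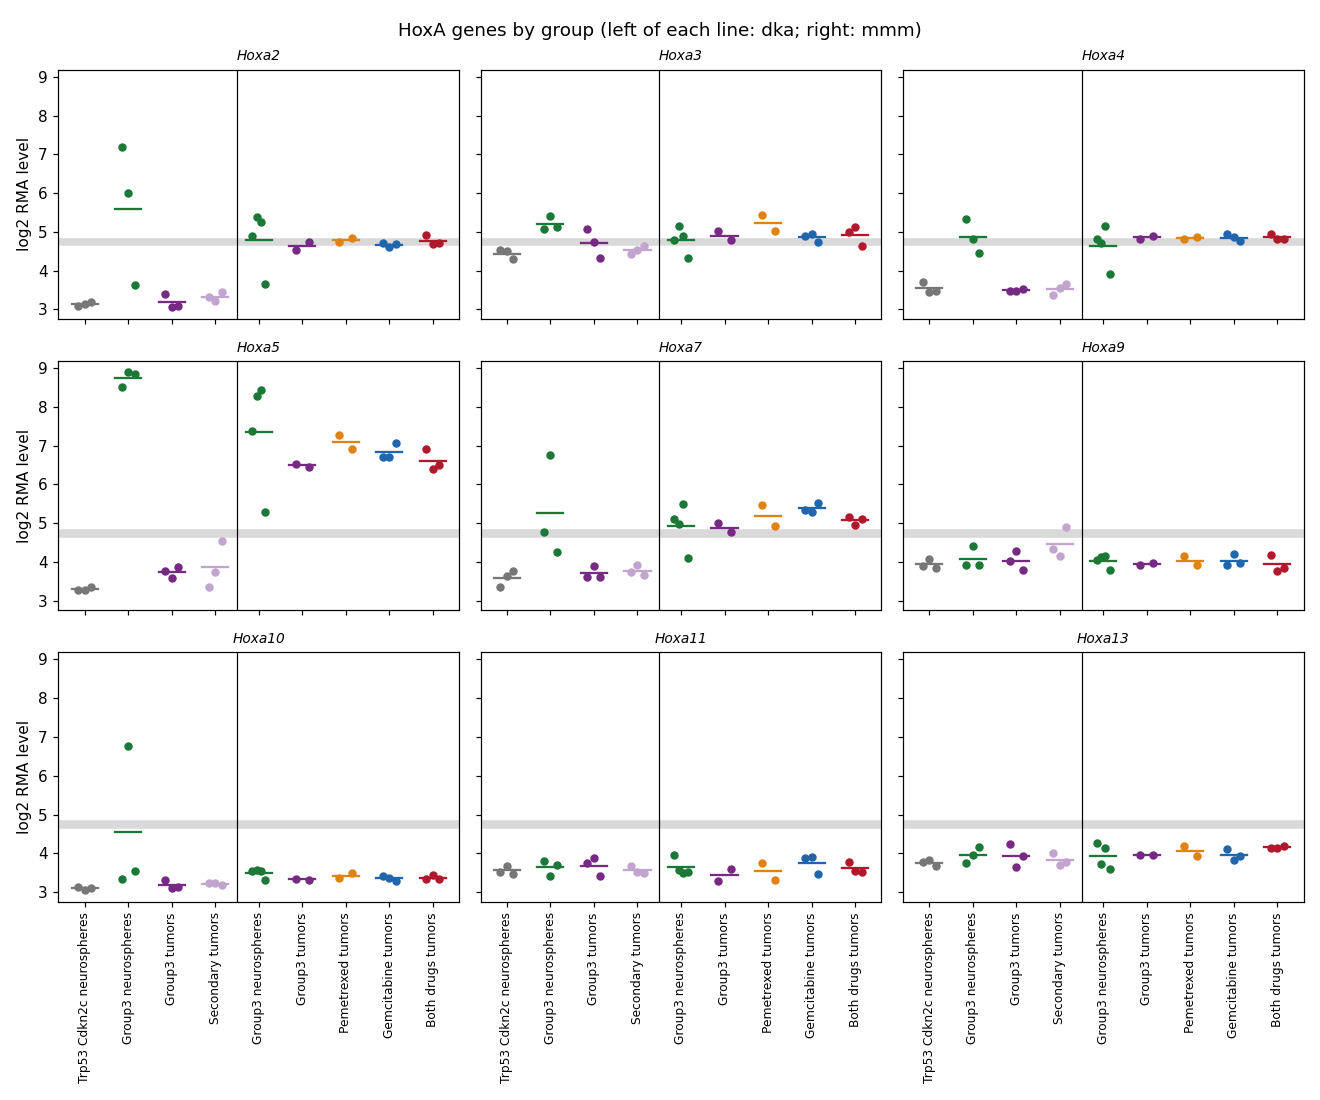
Points are single arrays and short lines group means, for 9 HoxA genes; the vertical axis is the log2 RMA level and the grey band the range of array medians (4.65 to 4.82). Hoxa5 is high in dka Group3 neurospheres and low in both dka tumor groups, whereas all 10 mmm tumors lie at 6.40 or above.

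The neurosphere groups also differed in cell identity. Of 9 measured granule progenitor and neuron markers, 8 were above the array median in Trp53 Cdkn2c neurospheres (mean of the list 9.36 to 9.52 per array), as their label says, and 3 in dka Group3 neurospheres (4.85 to 5.32), where Atoh1, Barhl1 and Neurod1 were not. All 8 neural stem markers were above it in dka Group3 neurospheres (9.40 to 9.66) against 5 (7.03 to 8.01). Microglia markers read 6.21 to 6.77 in Trp53 Cdkn2c neurospheres, 7 of 10 above the median, and 3.73 to 3.97 in Group3 neurospheres, with none above. Of 4 measured spinal cord and brainstem neuron markers, none was above it in Group3 neurospheres (3.59 to 3.76). The part of cell makeup in the Hox difference was not tested, and in bulk RNA fewer cells of a type and less RNA per cell cannot be told apart.

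Hoxa2, Hoxa4, Hoxa5 and Hoxa7 fell between dka Group3 neurospheres and dka Group3 tumors. Hoxa5 read 3.76, 3.59 and 3.87 in the tumors, every array far below the lowest neurosphere array. In log2 level, Hoxa5 fell by 5.01 (SE 0.51, limma adjusted p = 2.73e-06). Hoxa2 read 3.40, 3.06 and 3.09 in tumors and fell by 2.42 (SE 0.55, limma adjusted p = 0.0040). Hoxa4 read 3.49, 3.47 and 3.53 and fell by 1.36 (SE 0.23, limma adjusted p = 0.00029). Hoxa7 read 3.61, 3.90 and 3.60 and fell by 1.56 (SE 0.42, limma adjusted p = 0.0127). For these 4 genes the arrays of the groups did not overlap. The share of all genes without overlap is not given here.

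These were the only members called, 4 of 34, all lower, where limma called 18.6% of all genes in either direction. The comparison uses the same neurosphere arrays as the contrast Hoxa5 was selected on, so it is not independent of that choice. The Hoxa7 call rested on neurosphere replicate 2: without it the difference was -0.81 (limma adjusted p = 0.0637), and with dka arrays alone in the fit the adjusted p by limma was 0.0510. Hoxa10 differed by -1.37 (limma adjusted p = 0.0702) and Hoxa3 by -0.48 (limma adjusted p = 0.107), and neither passed, though 2 of the 4 Hoxa3 probe sets fell, by 2.64 (limma adjusted p = 0.00043) and by 0.77 (limma adjusted p = 0.0217). With the mean of all probe sets of a gene, 5 members were called, Hoxa3 being added. The median over members was -0.02 and over all genes 0.00.

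Markers of other cell types also differed between these groups. Microglia and macrophage markers above the median went from 0 of 10 in dka Group3 neurospheres to 9 of 10 in dka tumors (6.31 to 6.90 per array), and endothelial markers from 0 of 8 (4.03 to 4.12) to 5 of 8 (5.17 to 6.65). Neural stem markers were at 6.22 to 7.94 in tumors, 6 of 8 above the median, and granule markers at 6.55 to 6.88, 5 of 9 above. Their part in the Hox values was not tested.

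Against Trp53 Cdkn2c neurospheres, no HoxA gene of the dka tumors passed the threshold. Hoxa5 was 0.43 higher (SE 0.51, limma adjusted p = 0.639), Hoxa2 0.05 higher (SE 0.55), and Hoxa4 differed by -0.05 (SE 0.23). Only Hoxb5, a gene of gut neural crest, was called, 1 of 34 where 15.6% of all genes were: 3.67, 3.34 and 3.55 in tumors against 3.17, 3.18 and 3.10, a rise of 0.37 (SE 0.12, limma adjusted p = 0.0385). All 6 values lie below the array medians, and the call was lost without any single array of either group except tumor replicate 2. This comparison shares its arrays with the previous ones.

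HoxA levels were also low in Secondary tumors. Hoxa5 read 3.36, 3.74 and 4.53, against 3.76, 3.59 and 3.87 in the primary tumors, which overlap. The difference was 0.14 (SE 0.51, limma adjusted p = 0.958), and it changed sign without Secondary tumor replicate 3. No member was called by limma between Secondary and primary tumors, where 0.538% of all genes were, and 5 members had an unadjusted p under 0.05. The share of all genes at that unadjusted threshold is not given here, so no excess is read from this count. All 34 differences were within 0.5.

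Against the dka Group3 neurospheres, 5 of 34 members fell in Secondary tumors, where 24.6% of all genes were called in either direction. Hoxa5 fell by 4.88 (SE 0.51, limma adjusted p = 1.74e-06). Hoxa2 fell by 2.28 (SE 0.55, limma adjusted p = 0.0043), Hoxa4 by 1.33 (SE 0.23, limma adjusted p = 0.00023), Hoxa7 by 1.49 (SE 0.42, limma adjusted p = 0.0127) and Hoxa3 by 0.67 (SE 0.20, limma adjusted p = 0.0180). Hoxa3 read 5.06, 5.41 and 5.12 in those neurospheres and 4.42, 4.52 and 4.63 in Secondary tumors, which do not overlap, while 5.07, 4.75 and 4.33 in primary tumors overlap both. Without neurosphere replicate 2, the Hoxa3 and Hoxa7 calls were lost and Hoxa2, Hoxa4 and Hoxa5 were called. The Hoxa3 call was also lost without Secondary tumor replicate 1, and that of Hoxa7 with dka arrays alone in the fit. The neurosphere arrays are again those of the contrast Hoxa5 was selected on, and they are shared with the primary tumor comparison.

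On mmm arrays, Hoxa5 read 7.38, 8.27, 8.43 and 5.28 in Group3 neurospheres and 6.53 and 6.46 in untreated tumors. The tumors lay between replicate 7 and the other 3 neurosphere arrays. Over all 4, tumors differed by -0.84 (SE 0.54, limma adjusted p = 0.298). Without replicate 7, it fell by 1.53 (SE 0.30, limma adjusted p = 0.0015). Hoxa2 read 4.90, 5.39, 5.25 and 3.66 in these neurospheres and 4.54 and 4.75 in tumors, a difference of -0.16 (SE 0.58, limma adjusted p = 0.890), or -0.54 without replicate 7 (limma adjusted p = 0.580). Hoxa4 read 4.82, 4.70, 5.15 and 3.91 against 4.82 and 4.90, which overlap.

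The 4 members called on mmm arrays were others, all lower in tumors: Hoxc9, Hoxd4, Hoxb9 and Hoxb8. All read below the array medians in both the neurospheres and the tumors, so the sizes of their differences are uncertain. The lowest value of an array also differed, being -0.03 and -0.09 in these tumors and 0.18 to 2.64 in these neurospheres. The called members were 4 of 34, where 22.1% of all genes were called. Hoxc9, a gene that sets thoracic motor neuron identity, read 4.21, 4.11, 4.26 and 4.47 in neurospheres and 3.51 and 3.43 in tumors, and fell by 0.80 (SE 0.17, limma adjusted p = 0.0025). Hoxd4, which marks a hindbrain boundary, read 4.24, 4.41, 2.72 and 3.38 against 2.47 and 2.59 and fell by 1.16 (SE 0.35, limma adjusted p = 0.0232). Hoxb9 read 4.40, 3.29, 3.25 and 3.46 against 2.97 and 2.82, and Hoxb8 3.29, 2.74, 3.04 and 3.31 against 2.71 and 2.73. For all 4 genes the tumors lay below every neurosphere array, for Hoxb8 only just (2.73 against 2.74). The share of all genes without overlap is not given here, so nothing particular to these genes is read from it. Hoxb9 fell by 0.70 (SE 0.25, limma adjusted p = 0.0472) and Hoxb8 by 0.38 (SE 0.13, limma adjusted p = 0.0457). Only the Hoxc9 call held without tumor replicate 4, tumor replicate 5 or neurosphere replicate 4, or with mmm arrays alone in the fit; without neurosphere replicate 7, Hoxa5, Hoxc9 and Hoxd4 were called, and 18.6% of all genes. Microglia and macrophage markers read 3.72 to 3.95 in mmm neurospheres, none of 10 above the median, and 8.31 to 8.47 in mmm tumors, with 10 of 10 above. Neural stem markers read 6.93 to 10.67 per array in mmm neurospheres (5 of 8 above) and 8.74 to 8.84 in mmm tumors (7 of 8). Granule markers read 4.70 to 6.29 (2 of 9 above) and 6.67 to 6.69 (5 of 9). The part of these cell types in the Hox values was not tested.

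**Figure D3:**
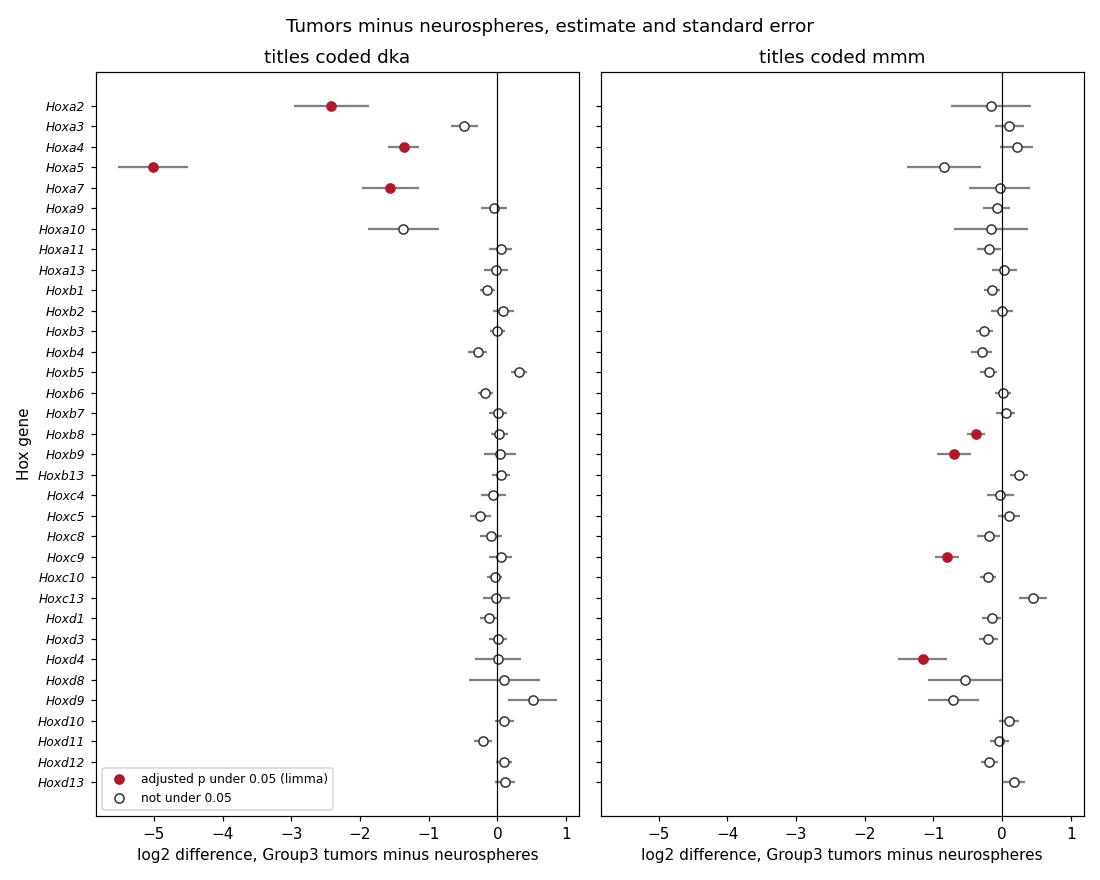
Horizontal axis, log2 difference of Group3 tumors minus Group3 neurospheres with its standard error, for 34 Hox genes on dka (left) and mmm (right) arrays. Red points have a limma adjusted p under 0.05: Hoxa2, Hoxa4, Hoxa5 and Hoxa7 at left, Hoxb8, Hoxb9, Hoxc9 and Hoxd4 at right.

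The tumor minus neurosphere difference itself differed between the codes for 3 of 34 members, where 9.17% of all genes did. For Hoxa5 it was -5.01 on dka and -0.84 on mmm arrays, a gap of 4.17 (SE 0.75, limma adjusted p = 0.0037), and without replicate 7 a gap of 3.48 (SE 0.40, limma adjusted p = 0.00015). For Hoxa4 it was -1.36 and 0.21, a gap of 1.58 (SE 0.33, limma adjusted p = 0.0081), and 1.33 without replicate 7 (limma adjusted p = 0.0061). For Hoxc9 it was 0.05 and -0.80, a gap of -0.84 (SE 0.24, limma adjusted p = 0.0327), which was lost without replicate 7 (limma adjusted p = 0.0617) and without several other single arrays. Hoxa3 did not pass by its brightest probe set, but its next brightest gave a gap of 2.53 (limma adjusted p = 0.0249), and with the mean of all probe sets 4 members were called, Hoxa3 being added. Without dka neurosphere replicate 3 or mmm neurosphere replicate 5, 5 members were called. Without mmm neurosphere replicate 7, 2 of 34 were, Hoxa4 and Hoxa5, where 5.95% of all genes were. The code and any other difference between those samples cannot be told apart, and the mmm and dka neurospheres are not independent of each other.

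Drug treatment moved no Hox gene past the threshold. The drug comparisons share the same 2 untreated mmm tumors. Hoxa5 read 7.27 and 6.92 after Pemetrexed, 6.70, 6.70 and 7.08 after Gemcitabine, and 6.92, 6.40 and 6.50 after both, against 6.53 and 6.46 untreated. Both single-drug groups lay above the untreated pair, and the combination overlapped it. In log2 level, the differences were 0.60 (SE 0.63, limma adjusted p = 0.9999), 0.33 (SE 0.57, limma adjusted p = 0.937) and 0.11 (SE 0.57, limma adjusted p = 0.996). For Pemetrexed, limma called 0 of 34 members and 0% of all genes (1 member had an unadjusted p under 0.05), and for Gemcitabine also 0 of 34 and 0% (1 member). For the combination it called 0 of 34 members and 0.076% of all genes (4 members). The share of all genes at the unadjusted threshold is not given here, so no excess is read from the counts in parentheses. With these standard errors, changes of their size could not be detected in groups of 2 or 3 arrays. The standard errors also carry the spread of the other groups. For Hoxa5 the SD was 1.45 in mmm Group3 neurospheres (n = 4), which include replicate 7, and 0.05 to 0.27 in the mmm tumor groups. The drug comparisons are not given without replicate 7.

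Over all 10 mmm tumors, the spread of HoxA levels differed between genes. Hoxa5 had the largest SD of any member, 0.29, but Hoxc13, Hoxd8 and Hoxc9, all below the array medians, had 0.28 each. The 10 arrays cover untreated and drug-treated tumors. The SD was 0.25 for Hoxa7, 0.22 for Hoxa3, 0.11 for Hoxa2 and 0.06 for Hoxa4. Hoxa5 ran from 6.40 to 7.27 (median 6.70), Hoxa7 from 4.77 to 5.52 (median 5.14), Hoxa3 from 4.64 to 5.44 (median 4.97), Hoxa4 from 4.76 to 4.96 (median 4.84) and Hoxa2 from 4.54 to 4.93 (median 4.70). Hoxa5 was above the array median on all 10 arrays, Hoxa7 on 9, Hoxa4 on 8, Hoxa3 on 7 and Hoxa2 on 2. The last 4 sit close to the array median. Hoxa9, Hoxa10, Hoxa11 and Hoxa13 were below it on all 10, as were all members of the other clusters.

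For Hoxd8 and Hoxd9 of the HoxD cluster, single arrays stood out, and Hoxd9 was also higher in the dka tumors as a group. Hoxd8, a trunk gene, read 2.86, 5.91, 3.21 and 3.55 in mmm Group3 neurospheres and 4.84, 3.501 and 3.54 in Secondary tumors. Hoxd9, its neighbour in the cluster, read 3.21, 5.24, 3.78 and 3.89 in the same neurospheres and 4.84, 3.78 and 3.67 in Secondary tumors. Hoxd9 also read 4.87, 4.30 and 4.11 in dka tumors. Among mmm arrays both genes were highest in neurosphere replicate 5. On dka arrays the values above the array median were those of Secondary tumor replicate 1 and, for Hoxd9, tumor replicate 1. Neither was called in any comparison tested.

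Transcripts in and beside the HoxA cluster were examined for the same arrays. Skap2, a cytoplasmic adaptor protein gene, is the nearest measured gene outside the cluster on its anterior side. It read 4.49, 5.07 and 5.19 in Trp53 Cdkn2c neurospheres, 11, 10.46 and 10.83 in dka Group3 neurospheres, 6.73, 6.78 and 6.61 in dka tumors and 5.99, 5.99 and 5.73 in Secondary tumors. No groups overlapped, Group3 neurospheres were highest, and both tumor groups stayed above Trp53 Cdkn2c neurospheres. The share of all genes without overlap is not given here. Skap2 fell by 4.06 from neurospheres to tumors (SE 0.58, limma adjusted p = 7.80e-05) and by 4.86 to Secondary tumors (SE 0.58, limma adjusted p = 7.76e-06). Dka tumors were 1.79 above Trp53 Cdkn2c neurospheres (limma adjusted p = 0.0418), and a second Skap2 probe set gave 1.48 there (limma adjusted p = 0.0892).

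Gm15050, a transcript inside the cluster between Hoxa2 and Hoxa3, read 6.95, 6.61 and 5.87 in dka Group3 neurospheres and 3.83, 3.71 and 3.73 in tumors. It fell by 2.72 (SE 0.41, limma adjusted p = 0.00011). Hoxaas2, an antisense transcript of the same interval, fell by 0.80 (SE 0.23, limma adjusted p = 0.0196) from a mean of 4.18 to 3.38, both below the array medians. Further out, Snx10 and Cbx3 beyond Skap2, and Evx1os, Evx1 and Hibadh beyond Hoxa13, were not called in this comparison. Hibadh, an enzyme of valine breakdown, differed by -0.42 (SE 0.18, limma adjusted p = 0.124). On mmm arrays Skap2 differed by -1.26 in tumors (limma adjusted p = 0.159), and without replicate 7 it fell by 1.74 (limma adjusted p = 0.0384). Gm15050 differed by -0.62 (limma adjusted p = 0.340), and without replicate 7 it fell by 1.05 (limma adjusted p = 0.0396). Neighbours of the other clusters also differed. Npff, beyond Hoxc13, had means of 4.34 in Trp53 Cdkn2c neurospheres, 5.45 in dka Group3 neurospheres and 4.21 in dka tumors. Snx11, beyond Hoxb1, had 6.27, 4.90 and 5.90 in the same groups. A neighbour that differs is therefore not particular to HoxA. The remaining neighbours of HoxB, HoxC and HoxD are not described here.

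**Figure D4:**
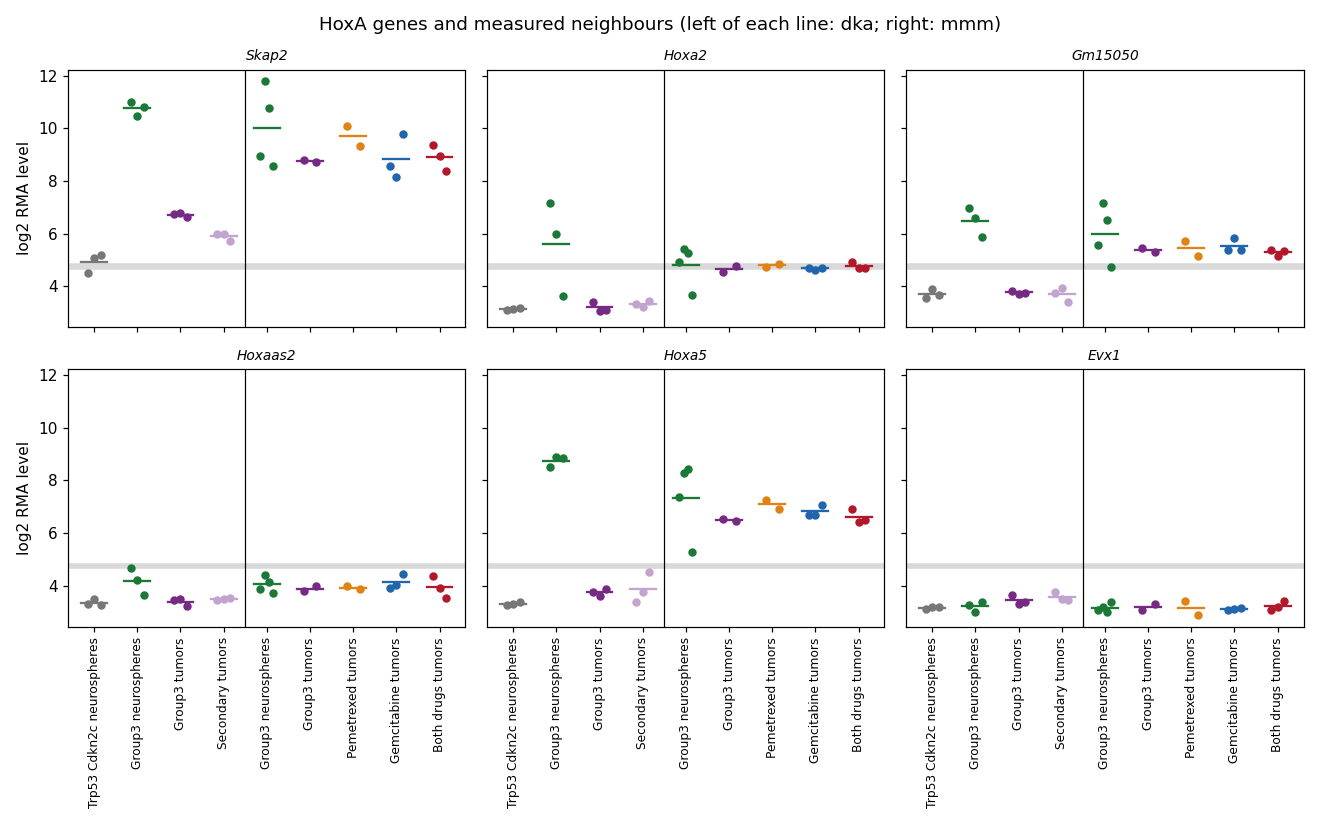
Log2 RMA level on single arrays (points) with group means (lines) for Skap2, Hoxa2, Gm15050, Hoxaas2, Hoxa5 and Evx1; the grey band is the range of array medians. Skap2, Gm15050 and Hoxa5 are highest in dka Group3 neurospheres among dka groups, and Evx1 stays below the band.

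The genes outside the family whose means over the 9 combinations of group and code ran most like those of Hoxa5 were Gm15050 (Pearson r 0.991), Nat2 (0.988), Sec24d (0.988), Msx1 (0.987) and Noxo1 (0.984). Within the family, Hoxa2 had 0.994, Hoxa7 0.942 and Hoxa4 0.925. These are descriptions over 9 means that span both codes, so differences in scale between codes enter them. They also include the dka neurosphere means that Hoxa5 was selected on. Msx1, a homeobox gene of neural crest and dorsal neural tube, had means of 5.24 in dka Group3 neurospheres, 3.80 in dka tumors and 3.49 in Trp53 Cdkn2c neurospheres.

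Factors that work with HOX proteins or set Hox expression were read in 5 lists; the share of all genes called was 18.6% between dka neurospheres and tumors and 22.1% on mmm arrays, and nothing particular to a list is read from its count. Of 8 measured TALE cofactors, 2 fell and none rose between dka neurospheres and tumors (list median -0.22, all genes 0.00): Pbx2 fell by 1.32 (SE 0.25, limma adjusted p = 0.0010) and Pknox2 by 1.65 (SE 0.47, limma adjusted p = 0.0188). Meis1, the most studied HOXA partner, had means of 8.10 in dka Group3 neurospheres, 7.93 in tumors and 10.03 in Trp53 Cdkn2c neurospheres. On mmm arrays Meis2 fell by 2.16 (SE 0.66, limma adjusted p = 0.0237) and Pbx3 rose by 0.88 (SE 0.31, limma adjusted p = 0.0487). All mmm results of the 5 lists include neurosphere replicate 7 and are not given without it.

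Of 16 measured genes of the Cdx and hindbrain patterning list, 1 rose and 1 fell between dka neurospheres and tumors (median -0.02). Gbx2, which positions the front of the hindbrain, fell by 1.93 (SE 0.38, limma adjusted p = 0.0013), and En2, a cerebellar and midbrain gene, rose by 1.26 (SE 0.43, limma adjusted p = 0.0455). Cdx1, Cdx2 and Cdx4, activators of the clusters in the tail, stayed below the array medians in the dka groups, with means of 3.32, 4.13 and 3.04 in Group3 neurospheres. Otx2, a forebrain and midbrain gene also active in granule progenitors, had means of 9.34 in Trp53 Cdkn2c neurospheres, 3.41 in dka Group3 neurospheres and 5.38 in dka tumors.

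Of 15 measured retinoic acid genes, 1 rose and 1 fell between dka neurospheres and tumors (median 0.26). Stra6, a retinol transporter, rose by 1.51 (SE 0.29, limma adjusted p = 0.0012), and Rarg, a retinoic acid receptor, fell by 0.85 (SE 0.20, limma adjusted p = 0.0046). On mmm arrays none of the 15 passed. Of 24 Polycomb genes, 3 rose and 1 fell on dka arrays (median 0.03): Pcgf6, Mtf2 and Rbbp4 rose, by 1.19, 0.79 and 0.68, and Phc3 fell by 1.01. On mmm arrays 1 rose and 4 fell, with Mtf2 again higher and Phc3 lower. Of 16 trithorax and activator genes, 3 rose and none fell on dka arrays (Mllt1, Wdr5 and Dot1l; median 0.17), and on mmm arrays none rose and Aff1 fell by 1.44. In the drug comparisons no gene of these 5 lists passed.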

How the data were processed

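The deposited values were log2 intensities; RMA and Partek 6.6 are named in the submitters' processing notes, with no role or order, and whether both title codes were normalized together is not given in the sources used here. The labels give Trizol extraction, NuGEN Ovation Pico amplification and Encore Biotin labelling. They were used as deposited. Of 45141 probe sets, 28898 had 1 gene symbol and 551 several, which were not used. Each of 17097 genes was read by its brightest probe set (7180 genes had more than 1). A linear model with 1 mean for each of 9 combinations of group and code was fitted with limma 3.58.1 (lmFit and eBayes) in R 4.3.3, and p-values were adjusted by Benjamini-Hochberg over all genes at 0.05, in 10 comparisons. The fit was tested on simulated data. Array number and dim signal limit precision. Members with a call, Hoxa5, and any member whose mean passed the 75th percentile are given array by array. Beyond the family the text names the 3 nearest measured genes on each side of HoxA and transcripts within it. It also names Npff beside HoxC, Snx11 beside HoxB, the 5 genes most like Hoxa5, and called genes of 5 lists. The Hox genes and the lists were chosen with earlier results of these data known. Alternatives were the mean of all probe sets of a gene, a dim-gene filter, quantile normalization, the 75th percentile as the level read against, fits of 1 code, an intensity trend with robust prior, single probe sets and leaving out each array.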

Additional observations from a re-analysis of the deposited data

Results flagged for a closer look

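In the 4 mmm Group3 neurosphere arrays, 4 of 34 Hox genes had a single array far from the other 3 for its group's range, which chance gives in about 1 in 20 groups. The 34 genes share the same arrays and the share of all genes flagged is not given here, so no excess is read from this count. Hoxa10 read 3.32 in replicate 7, against 3.53 to 3.56 in the others. Hoxc4 read 3.61 in replicate 7, against 3.88 to 3.91. Hoxa11 read 3.95 in replicate 4, against 3.504 to 3.57, and Hoxd12 read 3.32 in replicate 5, against 3.24 in each of the others. All of these levels lie below the array medians.

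The tumor minus neurosphere difference differed between codes (mmm minus dka) for Hoxa5 by 4.17 (limma adjusted p = 0.0037), for Hoxa4 by 1.58 (limma adjusted p = 0.0081) and for Hoxc9 by -0.84 (limma adjusted p = 0.0327).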

How the results depend on the processing

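Counts of Hox genes past the threshold stayed within 1.5 times under 39 of 49 other settings and under 50 of 62 that left out 1 array. A filter on genes dimmer than the median probe set left 2 members to test (Hoxa3 and Hoxa5), by its construction, and gave 1 member for the neurosphere groups, 1 for dka tumors against neurospheres, 0 on mmm arrays, 1 for the difference between codes, 0 for tumors against Trp53 Cdkn2c neurospheres and 2 for Secondary tumors against neurospheres. Quantile normalization gave 2 for mmm tumors and 0 for tumors against Trp53 Cdkn2c neurospheres; fits of 1 code gave 1 and 0. The causes of these were not tested. The mean of all probe sets of a gene added Hoxa3 for the neurosphere groups (6 members), dka tumors (5) and the difference between codes (4). Leaving out 1 array gave 3 to 5 for the neurosphere groups, 3 to 5 for dka tumors, 1 to 4 for mmm tumors, 2 to 5 between codes, 0 to 1 for tumors against Trp53 Cdkn2c neurospheres, 3 to 6 for Secondary tumors against neurospheres, and 0 to 0 for Secondary against primary tumors and for each drug comparison. Of 292 single-gene differences, 247 kept their call, 38 lost it and 2 turned: Hoxa5 between Secondary and primary tumors ranged from -0.19 (without Secondary tumor replicate 3) to 0.39, and Hoxa3 between Secondary tumors and neurospheres was 0.13 with the dimmest probe set alone (limma adjusted p = 0.520). No paired analysis was possible because the labels give no replicate numbers shared between groups; those used here follow deposit order. Most Hox levels lie below the array median, which limits the sizes that can be read.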
